A study of Mus musculus with 6 samples.

Results

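TRAJ28, TRAJ27, TRAJ26, TRAJ24, TRAJ23 and TRAJ21 are 6 neighbouring joining (J) segments in the distal part of the mouse T cell receptor α locus. They were chosen by segment name, as every sequence whose J assignment listed a single one of them, and they make up 6 of the 53 J genes found in the 6 libraries. Together they were joined in 263650 of 3675237 sequences. TRAJ26 was found in 81232 sequences, TRAJ27 in 71274, TRAJ21 in 48053, TRAJ23 in 29153, TRAJ28 in 19973 and TRAJ24 in 13965. TRAJ25 and TRAJ22 lie between these segments and are not members.

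The libraries were made from RNA of pre-selection DP thymocytes of WT BALB/c mice and of SKG mice, with 1 library for each genotype and for each of 3 amplicons (TRAV9, TRAV11 and TRAV19). SKG mice carry a hypomorphic point mutation in Zap70, the kinase that relays the TCR signal, on the BALB/c background. According to the study's methods, WT and SKG mice were bred from the same cross of BALB/cJ with SKG mice, and the DP cells were sorted as CD4+ CD8α+ without surface TCRβ, CD69 or CD5. The animals were untreated as far as the labels tell, and their age and the number of animals behind a library are not given in the sources used here. The deposited lists hold no other genes, so the labelled cell type could not be set against its markers.

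A TCR α chain is made when RAG joins a V segment to a J segment. In DP thymocytes the locus can rearrange again and again. Early joins use V segments near the J array and J segments at its upstream end (high Traj numbers), and each later join replaces the former with a V segment further upstream and a J segment further downstream, until a receptor is positively selected or the cell dies. Segments such as TRAJ28 to TRAJ21, past the middle of the array, are therefore reached mostly by later rearrangements. The question behind the libraries was whether such joins are made less or more often in SKG mice.

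The 6 segments lie on the plus strand of chromosome 14, and each is a single coding exon of 57 to 65 bases in the GENCODE annotation of the NCBIM37 assembly, within 7.18 kb of the 63.8 kb J array. TRAJ28 starts 36.7 kb and TRAJ21 43.8 kb downstream of the start of TRAJ61, the first segment of the array. Each is preceded by a recombination signal, made of a nonamer, a spacer of 12 bases and a heptamer, at which RAG cuts. Each sequence is shown from the nonamer to the end of the segment, since the signal decides where RAG cuts and the segment supplies the J region that every sequence counted here carries. Capitals mark in turn the nonamer, the heptamer and the codons of the Phe-Gly-X-Gly motif, which is typical of J regions.
TRAJ28 (chr14:54811308-54811400): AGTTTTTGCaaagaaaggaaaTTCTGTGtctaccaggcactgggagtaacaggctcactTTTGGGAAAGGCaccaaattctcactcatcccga
TRAJ27 (chr14:54811950-54812036): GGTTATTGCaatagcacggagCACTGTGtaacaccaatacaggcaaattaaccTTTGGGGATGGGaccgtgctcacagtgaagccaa
TRAJ26 (chr14:54814137-54814224): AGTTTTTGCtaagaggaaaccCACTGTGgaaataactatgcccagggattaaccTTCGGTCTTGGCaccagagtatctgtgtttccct
TRAJ24 (chr14:54815285-54815375): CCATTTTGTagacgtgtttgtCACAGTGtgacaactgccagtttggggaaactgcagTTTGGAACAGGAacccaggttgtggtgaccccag
TRAJ23 (chr14:54815728-54815815): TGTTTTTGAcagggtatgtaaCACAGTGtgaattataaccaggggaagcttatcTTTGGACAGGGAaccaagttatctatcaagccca
TRAJ21 (chr14:54818437-54818521): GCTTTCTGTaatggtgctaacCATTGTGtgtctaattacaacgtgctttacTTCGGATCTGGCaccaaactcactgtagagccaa
All 6 segments had a reading frame with this motif and without a stop codon, TRAJ23 included. The heptamer matched the consensus CACTGTG at all 7 bases for TRAJ27 and TRAJ26, as for 16 of the 59 named Traj segments. It matched at 6 bases for TRAJ24, TRAJ23 and TRAJ21 and at 5 for TRAJ28. The nonamers matched the consensus GGTTTTTGT at 6 bases for TRAJ24 and at 7 for the other members, against a median of 7 over all named segments. These letters were read on the plus strand directly upstream of each segment. The assembly is not that of BALB/c mice, so the alleles in these libraries can differ from it, and a match is a description only.

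Shares are given as the percentage of productive sequences of a V gene, where a productive sequence has an in-frame junction and no stop codon. They are given for TRAV19, for each of 6 TRAV9 genes listed alone, and for TRAV11 and its copy TRAV11D together, so 8 V genes in all. In NCBIM37, TRAV19 ends 309 kb upstream of TRAJ61, TRAV9-4 478 kb, TRAV9-2 563 kb, TRAV11 635 kb, TRAV9D-4 1171 kb, TRAV9D-3 1234 kb, TRAV9D-2 1262 kb and TRAV11D 1330 kb. Between 33917 and 252048 productive sequences stood behind each V gene and library, so the share that 3 sequences make up lay between 0.00119% and 0.00885%. Each sequence was counted once, and 1 library per genotype and amplicon gives no replicate check. The 6 TRAV9 genes come from the same pair of libraries and are not replicates. Fisher's exact tests and Wilson intervals (CI, 95%) therefore compare libraries, not genotypes, and cover counting error only. Since sequences of the same rearrangement are not independent, each comparison is also given with its variance scaled by a factor between 25.9 and 99.8 (quasi-binomial comparison, adjusted by Benjamini-Hochberg over the 8 V genes). The factor is how much more the productive share of J segments varied between the WT and the SKG list of a V gene than counting allows. Taken from the compared lists themselves, it measures neither the number of rearrangements nor the spread of J shares between libraries of a genotype. Differences between the libraries in depth, amplification or the number of cells cannot be told apart from genotype.

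The 6 segments together made up a larger share of the productive sequences in SKG than in WT for all 8 V genes. For TRAV9-2 it went from 5.63% (5.51 to 5.75, 95% CI) in WT to 9.47% (9.24 to 9.71) in SKG, a ratio of 1.68. For TRAV9-4 it was 4.68% in WT and 6.63% in SKG, and for TRAV9D-2 it was 5.98% and 7.999%. These V genes had ratios of 1.42 and 1.34, and the WT and SKG intervals did not overlap for any of them. TRAV9D-4 had the highest share in both genotypes, 10.2% (10.03 to 10.4) in WT and 12.6% (12.3 to 12.8) in SKG, a ratio of 1.23. For TRAV9D-3 the share was 10.03% in WT and 11.8% in SKG, a ratio of 1.18. The share of TRAV9-3 was 7.51% in WT and 8.19% in SKG, with a ratio of 1.09, and that of TRAV11 was 9.62% and 10.4%, with a ratio of 1.08. TRAV19, the closest to the J array of the V genes that could be placed in the assembly, joined the 6 segments least. Its share was 1.26% (1.21 to 1.31) in WT and 1.76% (1.71 to 1.81) in SKG, a ratio of 1.40.

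By Fisher's exact test on numbers of sequences, all 8 differences exceeded counting error, with adjusted p of at most 1.06e-12. With the scaled variance, 5 of them did. The adjusted p was 9.17e-07 for TRAV9-2, 0.000663 for TRAV9-4, 0.0213 for TRAV9D-2, 0.0341 for TRAV9D-4 and 0.0366 for TRAV9D-3. It was 0.186 for TRAV19 and TRAV9-3 and 0.423 for TRAV11, for which the scaled 95% interval of the ratio ran from 0.891 to 1.31. The ratios of TRAV19, TRAV9D-3 and TRAV11 were not distinguishable from each other (quasi-binomial comparison of the log odds changes, adjusted p = 0.533 for each of the 3 contrasts). In TRAV11 and TRAV19 the direction rested on 1 segment each, since the log2 ratio of SKG to WT was -0.01 in TRAV11 without TRAJ28 and -0.14 in TRAV19 without TRAJ26.

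**Figure D1:**
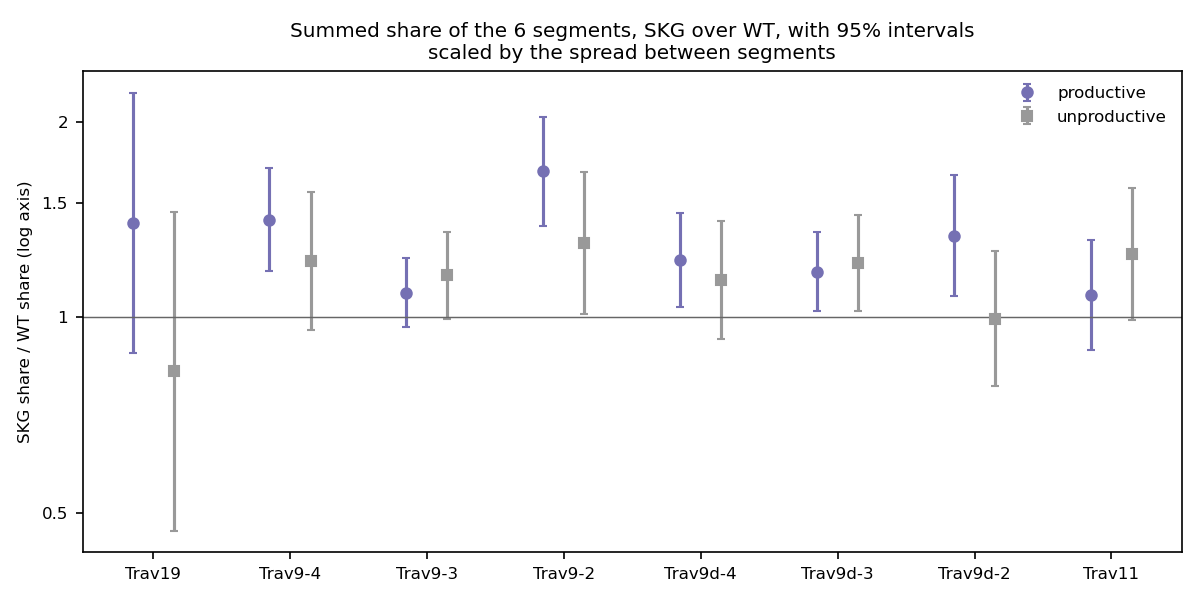
SKG over WT share of the 6 segments together (log axis), for each V gene, among productive (circles) and unproductive (squares) sequences, with 95% intervals scaled by the spread between segments. All 8 productive ratios lie above 1, from 1.08 to 1.68, and the intervals of 5 exclude 1. The unproductive ratios of TRAV19 and TRAV9D-2 lie below 1, with intervals that hold 1.

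In WT the V genes ranked TRAV9D-4, TRAV9D-3, TRAV11, TRAV9-3, TRAV9D-2, TRAV9-2, TRAV9-4 and TRAV19 by the share of the 6 segments. In SKG the order was the same except that TRAV9-2 moved above TRAV9-3 and TRAV9D-2. Of the 14 pairs of neighbours in these orders, 4 differed with the scaled variance. By the quasi-binomial comparison, they were TRAV11 over TRAV9-3 (adjusted p = 0.0381) and TRAV9-3 over TRAV9D-2 (adjusted p = 0.00769) in WT, and TRAV9-4 over TRAV19 in both genotypes (adjusted p of at most 5.25e-11). The other neighbours did not differ beyond their scaled error. TRAV9D-2 lies furthest from the J array among the TRAV9 genes that could be placed in the assembly (TRAV9-3 was not). Its WT share was below that of TRAV9D-3 and TRAV9D-4.

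TRAJ26 was the most used of the 6 in 13 of the 16 combinations of V gene and library. Its share was higher in SKG for every V gene, by log2 ratios of 0.18 to 1.73, and 4 of these reached 0.32, the threshold used for a call. Among the TRAV9 genes it was highest with TRAV9D-4, at 3.98% in WT and 5.44% in SKG. With TRAV9D-3 it was 3.81% in WT and 4.43% in SKG, and with TRAV9-3 it was 3.23% and 3.68%. It was lower with TRAV9-4 (1.94% and 2.40%), TRAV9-2 (1.83% and 3.33%) and TRAV9D-2 (2.001% and 2.68%). For each of these genes the SKG value was the higher. With TRAV11 the share was 2.05% in WT and 2.33% in SKG. With TRAV19 it was 0.256% in WT (600 sequences) and 0.847% in SKG (2136 sequences), a ratio of 3.31 (95% CI 3.03 to 3.62 by counting, 1.34 to 8.17 with the scaled variance).

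TRAJ27 was the segment that TRAV11 used most among the 6, and TRAV11 was its leading partner. It made up 6.45% of the productive TRAV11 sequences in WT and 5.71% in SKG, and in WT this was 67.1% of the productive joins of TRAV11 to the 6 segments. This was the only V gene with a lower TRAJ27 share in SKG. With the TRAV9 genes the WT shares lay between 1.27% (TRAV9-4) and 2.55% (TRAV9D-4), and the SKG shares between 1.60% and 2.93% for the same genes. The largest increase was that of TRAV9D-3, from 1.70% to 2.51%, a ratio of 1.48 (scaled 95% CI 1.06 to 2.07). With TRAV19 the share was 0.144% in WT and 0.147% in SKG.

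TRAJ21, the most downstream of the 6, was higher in SKG for 7 of 8 V genes. With TRAV9-4 its share was 0.652% in WT and 1.28% in SKG, a ratio of 1.97 (scaled 95% CI 1.247 to 3.11). With TRAV9-2 it was 1.33% and 2.36%, and with TRAV9D-4 1.28% and 2.27%. The scaled intervals of these 3 ratios excluded 1. With TRAV9D-3, its leading partner, the share was 2.50% in WT and 3.13% in SKG. With TRAV9D-2 it was 1.56% and 2.11%, with TRAV9-3 1.253% and 1.46%, and with TRAV11 0.876% and 1.08%. TRAV19 gave a slightly lower share in SKG, 0.480% against 0.518% in WT, although TRAJ21 was the segment of the 6 that it used most in WT.

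TRAJ28, the first of the 6 along the array, had no common direction. The largest change was with TRAV11, where it made up 0.0973% of the WT sequences (134 sequences) and 0.944% of the SKG sequences (1443 sequences), a ratio of 9.70 (95% CI 8.13 to 11.6 by counting, 2.02 to 46.7 with the scaled variance). With TRAV9-2 it was 0.410% in WT and 0.886% in SKG, with TRAV9D-2 0.222% and 0.510%, and with TRAV9-4 0.588% and 0.781%. These 4 V genes had the higher share in SKG. The other 4 had the lower one. With TRAV19 the share was 0.232% in WT (543 sequences) and 0.0948% in SKG (239 sequences), a ratio of 0.409 whose scaled interval held 1. With TRAV9-3 it was 0.882% and 0.725%, with TRAV9D-4 1.24% and 1.001%, and with TRAV9D-3 1.14% and 0.923%.

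TRAJ24 was rarer than TRAJ26 with every V gene in both genotypes. Its share was highest with TRAV9D-4, at 1.05% in WT and 0.857% in SKG, and with TRAV9D-3, at 0.802% and 0.792%. These were the V genes for which it was lower in SKG. The other 6 had more in SKG. With TRAV9-4 the share was 0.197% in WT and 0.537% in SKG, a ratio of 2.73 (scaled 95% CI 1.26 to 5.92), and with TRAV11 it was 0.141% and 0.355%. With TRAV19 it was 0.106% and 0.190%, with TRAV9-2 0.392% and 0.573%, with TRAV9D-2 0.433% and 0.672%, and with TRAV9-3 0.459% and 0.582%.

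TRAJ23 was nearly absent from productive sequences, and its share of them was called lower in SKG for all 6 V genes that could be compared. Its highest share was with TRAV9-2, 0.164% in WT (232 sequences) and 0.119% in SKG (72 sequences). With TRAV9D-4 it was 0.129% in WT and 0.0554% in SKG, and with TRAV9-3 it was 0.0955% and 0.0538%. The WT value was the higher one for all 6 TRAV9 genes, but none of the scaled intervals excluded 1. With TRAV9D-3 the share was 0.0833% in WT and 0.0175% in SKG, and with TRAV9-4 it was 0.0399% and 0.0264%. For TRAV9-4 (87 WT and 29 SKG sequences) the counting interval of the ratio, 0.436 to 1.01, also held 1. With TRAV9D-2 there were 110 WT sequences and 2 SKG sequences, a ratio of 0.0684 (exact 95% CI 0.00818 to 0.253). TRAV19 had 8 productive sequences with TRAJ23 in WT and 4 in SKG. TRAV11 had 0 of 137708 in WT, which allows a share of up to 0.00218%, and 2 in SKG.

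**Figure D2:**
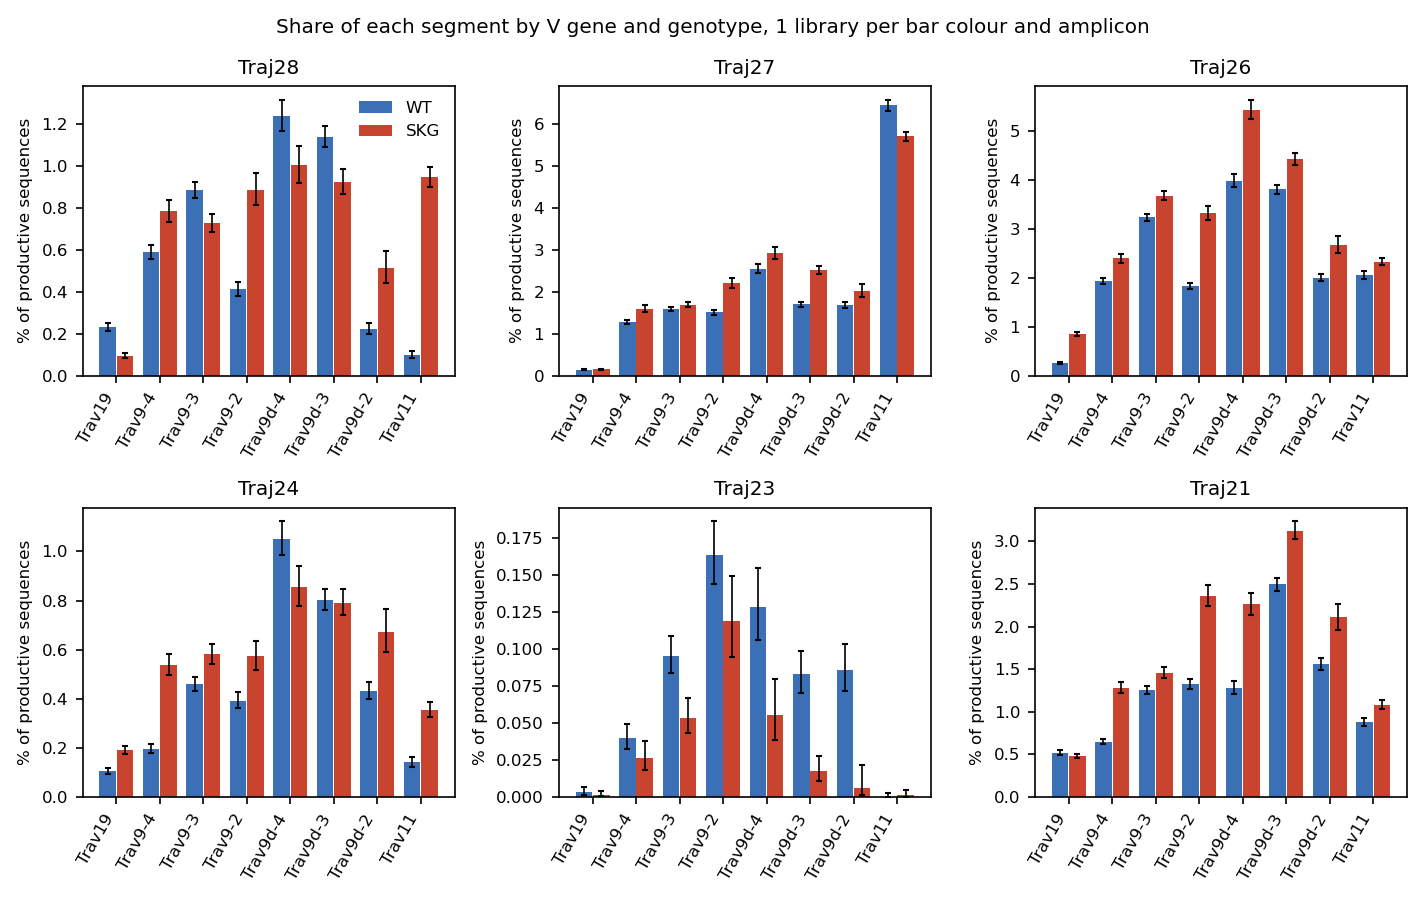
Share of each of the 6 segments among productive sequences (percent, linear axes that differ between panels), by V gene, in the WT library (blue) and the SKG library (red), with 95% Wilson intervals for counting error. TRAJ26 is higher in SKG with every V gene, TRAJ27 peaks with TRAV11 at 6.45% in WT, TRAJ28 with TRAV11 goes from 0.0973% to 0.944%, and TRAJ23 stays below 0.2% everywhere.

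Calls were made by fold, since 1 library a group allows no other. Of the 48 combinations of a segment and a V gene, 46 had at least 100 productive sequences over both libraries and were compared, and a log2 ratio of SKG to WT share of at least 0.32 in either direction was called higher or lower in SKG. Among these 46, 22 were higher and 7 lower, with a median log2 ratio of 0.31 against 0.07 over all segments and V genes. The scaled interval of the ratio lay above 1 for TRAJ26 and TRAJ21 with 3 V genes each and for TRAJ28 with 2. It did so for TRAJ27 and TRAJ24 with 1 each, and it lay below 1 in no case. All other calls were within their scaled error. The shares called over all segments are given by V gene. For TRAV9-2, 5 of 6 members were higher and 1 lower, where 39.5% of all segments were higher and 23.3% lower. For TRAV9-4, 4 of 6 were higher and 1 lower, against 34.9% and 20.9% of all segments. For TRAV9D-2, 4 of 6 were higher and 1 lower, against 41.9% and 25.6%. For TRAV9D-4, 2 of 6 were higher and 1 lower (11.6% and 23.3% of all segments), and for TRAV9D-3, 2 of 6 and 1 (18.6% higher and 18.6% lower). For TRAV19, 2 of 5 were higher and 1 lower (41.5% and 22.0%), and for TRAV11, 2 of 5 were higher and 0 lower (30.6% and 25.0%). For TRAV9-3, 1 of 6 was higher and 1 lower (23.3% and 14.0%). The share of members called higher was above that of all segments for 6 of the 8 V genes, and below it for TRAV19 and TRAV9-3. In each TRAV9 gene the 1 member called lower was TRAJ23, and in TRAV19 it was TRAJ28.

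**Figure D3:**
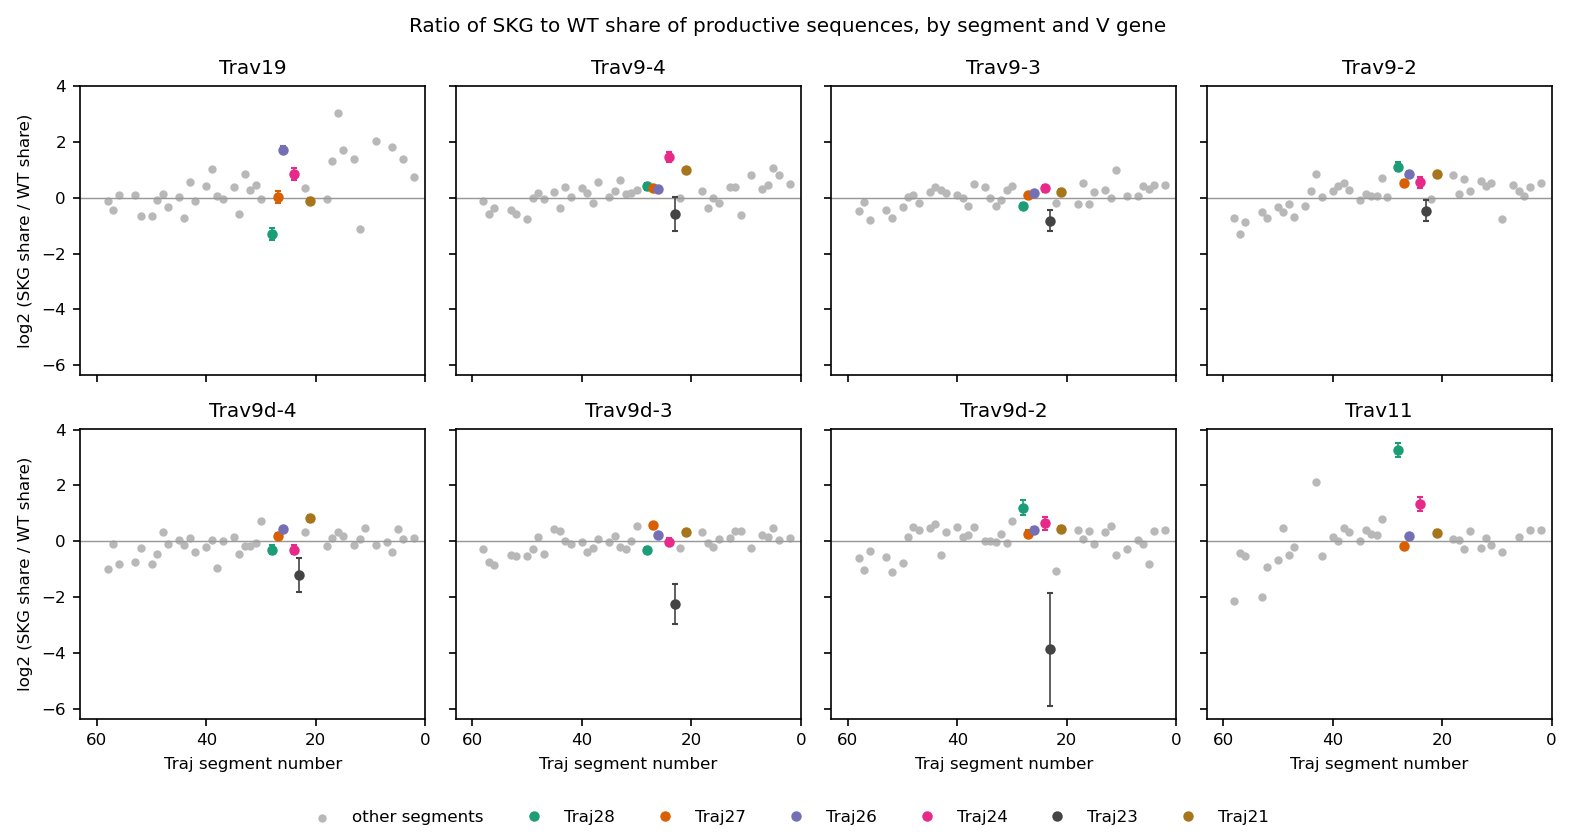
The log2 ratio of SKG to WT share of productive sequences against Traj number, with numbers falling from left to right along the array, for each V gene. Coloured points are the 6 segments with 95% counting intervals and grey points the other segments with at least 100 sequences. Segments found only in the WT or only in the SKG library, such as TRAJ11 with TRAV19, have no ratio and are not drawn. TRAJ26 lies above 0 in all 8 panels, TRAJ28 reaches 3.28 with TRAV11, and TRAJ23 lies below 0 in the 6 panels that show it.

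The segments on either side of the 6 also tended to higher shares in SKG. The 5 segments from TRAJ35 to TRAJ31, just upstream, had a higher share of productive sequences in SKG for 6 of 8 V genes (3 with the scaled variance). Segments TRAJ17 to TRAJ11, downstream, did so for 8 of 8 (3 with the scaled variance). Set directly against the upstream group, the 6 gained with TRAV9-2, from 30.4% to 38.2% of the sequences of both groups, and with TRAV9D-4, from 39.7% to 47.8% (quasi-binomial comparison, adjusted p = 0.0265 for each). The other 6 V genes gave adjusted p between 0.105 and 0.484. Against the downstream group no V gene passed, with adjusted p between 0.182 and 0.736. Among all segments numbered 1 to 30, the 6 made up 19.3% of the TRAV9-2 sequences in WT and 25.1% in SKG (quasi-binomial comparison, adjusted p = 0.0347). With TRAV19 they made up 29.1% and 23.8%, and with TRAV11 21.4% in both. For these and the remaining V genes the adjusted p lay between 0.219 and 0.985. The other segments numbered 1 to 30 were higher in SKG for 8 of 8 V genes, with ratios of 1.06 to 1.83.

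Likeness to the summed 6 was ranked for 30 other segments across the 16 combinations of V gene and library. The segments whose log2 share followed the summed 6 most closely were TRAJ18 (Pearson's r = 0.865), TRAJ4 (r = 0.858) and TRAJ17 (r = 0.853). All of these lie further downstream. TRAJ22, which lies between members, and TRAJ30 were not among the segments ranked. Between members, r ran from 0.437 for TRAJ28 with TRAJ27 to 0.852 for TRAJ24 with TRAJ21, TRAJ23 being left out for its low counts. These are descriptions over points that share libraries and sequence totals.

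Unproductive sequences carry a frameshift or stop codon and cannot be selected through the α chain they encode. Among them the 6 segments together were higher in SKG for 6 of 8 V genes, but no difference passed with the scaled variance (adjusted p of 0.120 or more). The share was 8.99% in WT and 11.7% in SKG for TRAV9-2, 12.9% and 15.7% for TRAV9D-3, and 7.77% and 9.73% for TRAV11. TRAV19 went the other way, from 1.66% to 1.37%, and TRAV9D-2 had 11.3% and 11.2%. For TRAV19 and TRAV9D-2 the direction was thus not the one seen in productive sequences. The scaled intervals of their unproductive ratios, 0.469 to 1.45 and 0.783 to 1.265, held 1, so neither direction is settled.

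The direction of single segments was not always the same in both classes. With the scaled variance, a member's productive percentage differed between SKG and WT only for TRAJ26 with TRAV19 (quasi-binomial comparison, adjusted p = 0.0197). That comparison takes no account of the productive percentage of all segments. Whether the ratio of SKG to WT share differed between the classes was not tested. TRAJ28, without a common direction among productive sequences, was higher in SKG for all 7 V genes that could be compared among unproductive ones. The scaled interval of the ratio lay above 1 for only 1 of these, TRAV9D-3. There TRAJ28 rose from 0.425% to 1.28% of the unproductive sequences, a ratio of 3.01 (95% CI 2.65 to 3.40 by counting, 1.365 to 6.62 scaled). Its share of the productive sequences of TRAV9D-3 was lower in SKG. Of the TRAJ28 sequences with TRAV9D-3, 80.8% were productive in WT and 62.9% in SKG. This difference was within its scaled error (quasi-binomial comparison, adjusted p = 0.3795). TRAJ26 with TRAV19 fell from 0.644% to 0.433% of the unproductive sequences, a ratio of 0.673, against a ratio of 3.31 among productive ones. The scaled interval of the unproductive ratio, 0.254 to 1.78, held 1. TRAJ23, lower in SKG among productive sequences of all 6 TRAV9 genes, had a higher unproductive share in SKG in 4 of them. The ratios of 1.62 for TRAV9-2 and 1.38 for TRAV9-4 passed the threshold for a call. Their scaled intervals, 0.995 to 2.64 and 0.870 to 2.18, both held 1. None of the differences in the productive percentage of TRAJ23 between SKG and WT passed with the scaled variance (quasi-binomial comparison, adjusted p of 0.895 or more).

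The most uneven values came from TRAV11. TRAJ24 was found in 1 of 111757 unproductive TRAV11 sequences in WT and in 312 of 121903 in SKG, a ratio of 286. Its exact 95% interval by counting ran from 51.0 to 11330, but its scaled interval held 1. TRAJ23 was found in 0 of 249465 TRAV11 sequences of either class in WT and in 100 of 274782 in SKG. By counting alone this was at least 30.3-fold higher, against 3 sequences in the WT library. TRAJ28 was found in 382 unproductive sequences in WT and in 890 in SKG. How many separate rearrangements stood behind these sequences was not tested.

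TRAJ23 stood apart from the other members in its functionality class. Only 1139 of its 27789 sequences with the 8 V genes were productive, or 4.10%, against 62.3% for TRAJ21, 63.6% for TRAJ27, 68.0% for TRAJ26, 69.6% for TRAJ28 and 69.9% for TRAJ24. Its productive share lay between 0.318% (TRAV9D-2 in SKG, 95% CI 0.0871 to 1.15) and 13.0% (TRAV9-2 in WT, 95% CI 11.5 to 14.6). It was the lowest of all ranked segments in 12 of the 15 combinations of V gene and library that held it. The median over these combinations was 2.79%. Among segments with over 2 such combinations, the next median was 58.0%, that of TRAJ38. TRAJ25, which lies between TRAJ26 and TRAJ24, had no productive sequence among 225 in the 2 WT combinations that could be ranked, which leaves upper 95% limits of 3.47% with TRAV9-4 and 3.15% with TRAV9D-3. TRAJ22, between TRAJ23 and TRAJ21, had a median of 67.4%. With TRAV11, however, only 4 of 228 TRAJ22 sequences were productive in WT and 0 of 96 in SKG.

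TRAJ23 was not rare among the sequences as a whole. Of all joins to the 6 segments it made up a median of 11.99%, above TRAJ24 (6.299%) and TRAJ28 (8.12%). Among unproductive sequences it was the most used of the 6 in 12 of 16 combinations, with a median of 31.3%. With TRAV9D-3 it made up 4.55% of the unproductive sequences in WT and 4.301% in SKG. The lists give it as TRAJ23*01 with the mark F for a functional gene, and in the assembly its frame is open. The junctions and nucleotide sequences were not analysed here, so what made these sequences unproductive was not tested.

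**Figure D4:**
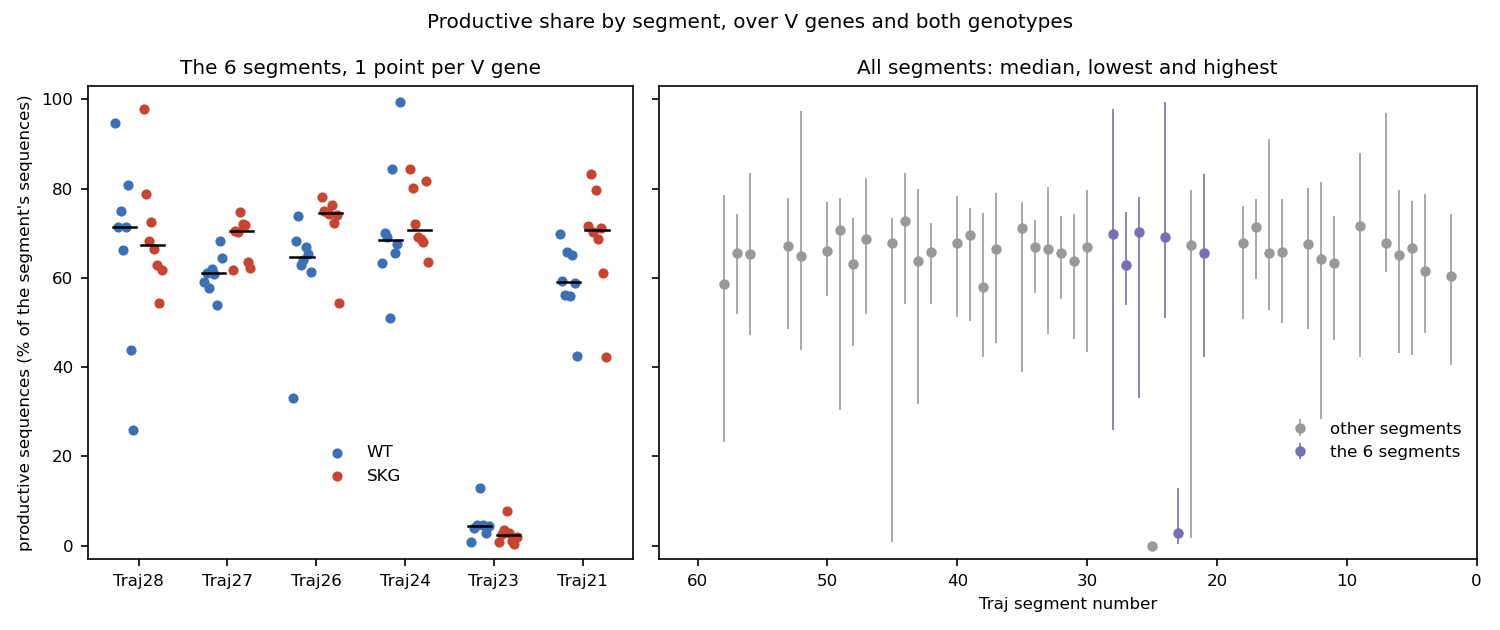
Percent of a segment's sequences that were productive. Left, 1 point per V gene for each of the 6 segments in WT (blue) and SKG (red), with black lines at the medians, and right, the median, lowest and highest value over V genes and genotypes for every segment along the array. TRAJ23 lies between 0.318% and 13.0%, and the medians of the other 5 members lie between 62.8% and 70.2%.

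The productive share of the 6 segments together was higher in SKG for 7 of 8 V genes. It was 48.6% in WT and 70.0% in SKG for TRAV19, a difference of 21.4 percentage points (scaled standard error 8.61, quasi-binomial adjusted p = 0.0203). For TRAV9-2 it rose by 11.5 points from 56.3%, for TRAV9-4 by 11.02 points from 57.7%, and for TRAV9D-4 by 9.77 points from 55.5%. TRAV9D-3 rose by 8.94 points and TRAV9-3 by 7.58 points. These 5 had adjusted p of at most 0.00819 in the scaled comparison. TRAV9D-2 differed by 4.56 points (quasi-binomial comparison, adjusted p = 0.324), and TRAV11 by -3.10 points, from 60.4% to 57.3% (adjusted p = 0.433). All other segments together were also higher in SKG for 7 of 8 V genes, by a median of 7.33 points, so the direction was not particular to the 6. Without TRAJ23, a setting chosen after the data were seen, the differences ran from -2.90 to 18.1 points, and 4 of 8 passed with the scaled variance.

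Among single members, TRAJ26 with TRAV19 was the only one whose productive share differed with the scaled variance, at 33.2% in WT (600 of 1809 sequences) and 78.0% in SKG (2136 of 2737), a difference of 44.9 points (quasi-binomial comparison, adjusted p = 0.0197). With TRAV11, 26.0% of the TRAJ28 sequences were productive in WT (134 of 516) and 61.9% in SKG (1443 of 2333), and 99.5% of the TRAJ24 sequences in WT (194 of 195) and 63.5% in SKG (542 of 854). These differences were within their scaled error (quasi-binomial comparisons, adjusted p = 0.3795 and 0.65).

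By allele, nearly all sequences of the 6 segments were assigned to allele 01. TRAJ21*02 alone was listed for 490 sequences of the WT TRAV9 library and 41 of the SKG TRAV9 library, for 6 and 11 sequences of the TRAV11 libraries, and for 33 sequences of the SKG TRAV19 library. A member was listed together with another J gene in 40 sequences of the WT TRAV9 library and 24 of the SKG TRAV9 library, and in 0 of the other libraries. Those sequences were not counted. Of the sequences of the 6 segments, 4217 in the WT and 2374 in the SKG TRAV9 library listed several TRAV9 genes and were left out of the shares by V gene.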

How the data were processed

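Trav amplicons of sorted thymocytes were sequenced on a MiSeq. The labels name genomic DNA as the molecule, while their protocol and the study's methods describe cDNA made from RNA. According to the study's methods, the authors derived clonal sequences with MiXCR, trimmed primers with cutadapt (version 1.13 per the labels), collapsed exact duplicates, and ran IMGT/HighV-QUEST at default options for the V and J genes and the functionality. The deposited lists give 1 row per sequence with an identifier, a class, and the V and J assignment, and hold no read counts, coordinates or bases. The identifiers are names and measure nothing. Collapsing exact duplicates makes abundant rearrangements count less, while copies that differ by an error would remain, so a share of sequences is a share of neither reads nor cells.

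The labels gave the genotype and amplicon of each list, and sequences were counted in Python 3.11.15 with pandas 2.3.3. The main setting kept productive sequences that listed a single J gene and a single V gene (TRAV11 and TRAV11D together). Shares were compared with two-sided Fisher's exact tests (scipy 1.17.1), adjusted by Benjamini-Hochberg over the 8 V genes. A segment was compared when both libraries together held 100 or more of its sequences, and called at a log2 ratio of 0.32 or more in either direction. The scaled comparisons multiplied the variance by the Pearson dispersion of a logistic fit of productive against unproductive sequences, with segment and library as terms (statsmodels 0.14.6), for segments that reached 50 sequences in each list. The scripts were tested on simulated data. For likeness between segments, 0.5 was added to each count. Low counts were compared by exact conditional intervals, and the floor was 3 sequences.

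The genes named were the 6 members, TRAJ25 and TRAJ22 between them, and segments 31 to 35 and 11 to 17 as summed groups. Also named were the 3 segments most like the summed 6, of 30 ranked for likeness. TRAJ38 was named after its values were seen. The members and lists were chosen with earlier results of these data known. Sequences and positions are those of NCBIM37 with GENCODE annotation, whose older names were matched through the RefSeq table of GRCm38.p6. The build given in the labels is mm10, and no coordinate of that build was used. TRAV9-3 was not matched. The alternatives were other functionality classes, V gene listed anywhere, the first-listed J gene, each member left out of the sum, a ratio of 1.5, and the scaled variance.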

Additional observations from a re-analysis of the deposited data

Results flagged for a closer look

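Some sequences of the 6 segments carried a V gene other than the one its amplicon was made for, and these entered no comparison. In the TRAV19 libraries there were 796 such sequences in WT, of 4497 over all segments, and 498 in SKG, of 6346 over all segments. Most listed TRAV4D-3, which was joined to TRAJ21 in 423 WT and 182 SKG sequences and to TRAJ23 in 254 WT and 128 SKG sequences. In the TRAV11 libraries there were 79 in WT and 57 in SKG. There, TRAV8D-2 was joined to TRAJ26 in 40 WT and 20 SKG sequences, to TRAJ24 in 22 WT sequences and to TRAJ23 in 37 SKG sequences. In the TRAV9 libraries there were 0 in either genotype.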

How the results depend on the processing

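Values are log2 ratios of SKG to WT share unless stated. The summed share of the 6 segments changed sign among unproductive sequences for TRAV19 (-0.28) and TRAV9D-2 (-0.0063), without TRAJ28 for TRAV11 (-0.0078) and without TRAJ26 for TRAV19 (-0.14). It kept its direction for all 8 V genes under all functionality classes together, with the V gene listed anywhere, with the first-listed J gene, and without each of the other 4 members. With the scaled variance TRAV19 (0.48), TRAV9-3 (0.13) and TRAV11 (0.11) no longer passed. Among segments 1 to 30, the share of the 6 changed sign for TRAV11 with all classes together (0.091) and among unproductive sequences (0.22), and for TRAV9D-2 among unproductive ones (-0.061). It no longer passed among unproductive sequences for TRAV9-4 (0.028), TRAV9-3 (-0.021) and TRAV9-2 (0.047), with the V gene listed anywhere for TRAV9-3 (-0.0097), and with the scaled variance for TRAV19 (-0.29), TRAV9-4 (0.17), TRAV9-3 (-0.040), TRAV9D-4 (0.17), TRAV9D-3 (0.10) and TRAV9D-2 (0.30). The productive share no longer differed with the scaled variance for TRAV9D-2 (4.56 points) and TRAV11 (-3.10 points). Of the 45 single comparisons with a value in both classes, 19 turned sign among unproductive sequences, 9 of which had not been called in the main setting. The 10 called ones were TRAJ26 with TRAV19 (-0.57) and TRAV9D-2 (-0.33), TRAJ24 with TRAV19 (-0.26), TRAV9-2 (-0.23) and TRAV9D-2 (-0.62), TRAJ21 with TRAV9-4 (-0.31), and TRAJ23 with TRAV9-4 (0.46), TRAV9-3 (0.091), TRAV9-2 (0.70) and TRAV9D-4 (0.038). The scaled intervals of these 10 unproductive ratios all held 1. With all classes together 7 of 46 turned sign, 5 of them not called before. The 2 called ones were TRAJ23 with TRAV9-4 (0.12) and TRAV9-2 (0.38). At a ratio of 1.5, 12 combinations were called higher in place of 22. Those called lower were 4 among unproductive sequences and 3 with all classes, in place of 7. The share of all segments called is not given for these settings, so these counts describe the members only. The causes were not tested.

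No paired analysis was possible because each genotype and amplicon has 1 library, so the labels' replicate numbers pair nothing and leaving out a replicate leaves nothing to compare. Depth limits mainly TRAJ23, whose productive counts with a V gene and library ran from 0 to 232.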
